A study of Mus musculus with 2 samples.

Results

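The 36 genes described here are antiviral effectors that type I interferon switches on, and they were taken by gene symbol from a list. That list was chosen with earlier results of these arrays known. All 36 were found on the array among 22180 named genes, and each was read from probe sets that carry 1 gene symbol. Of the 36 genes, 33 had 1 such probe set and 3 (Sp100, Ifi35 and Lgals3bp) had several, of which the one with the highest mean signal was used. Messenger RNA was measured on 2 Affymetrix arrays, 1 from RAW264.7 cells labelled HuR-deficient and 1 from wildtype RAW264.7 cells. RAW264.7 is an established mouse macrophage line, and HuR, the product of Elavl1, is an RNA-binding protein known to stabilise many mRNAs with AU-rich stretches. Before RNA was taken, both cultures had been transfected by lipofection with poly(I:C) of high molecular weight, which mimics viral double-stranded RNA, for 8 hours; the labels state a dose of 1 mg/ml. The labels do not say how HuR was disrupted or whether the line is 1 clone. Since both cultures were stimulated, induction by poly(I:C) itself cannot be read from these values.

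Double-stranded RNA in the cytosol is sensed by RIG-I-like receptors, which drive the cell to make interferon beta. Secreted interferon binds its receptor on the same and on neighbouring cells, and the kinases JAK1 and TYK2 then activate STAT2. With IRF9, STAT2 acts in the factor ISGF3, which binds a DNA element called the interferon-stimulated response element (ISRE) in the promoters of many genes. The proteins made from those genes act on different steps of a virus's life, from entry and RNA recognition to protein synthesis and budding.

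Each value is a log2 signal from 1 array, and each difference is the array labelled HuR-deficient minus the wildtype array. With 1 array per group there was no spread between replicates and no significance test, so no difference below is shown to exceed the variation between cultures. The robust SD of the differences of the 500 genes closest in mean signal is called the local SD below. It is a spread between genes on the same 2 arrays, so it includes any real differences of those genes. It is not the error of a single gene's value. Elavl1 did not separate the arrays, with a signal of 7.75 on the array labelled HuR-deficient and 7.68 on the wildtype array, so the genotype label could not be checked. Of 12 macrophage markers, 11 passed a filter on low signal that keeps a gene when its higher value reaches 4.38, the median of all named values. Of 22 markers listed for T and NK cells, B cells, neutrophils, fibroblasts and epithelium, 20 were measured and 8 passed the same filter. Of all 22180 named genes, 11905 passed it, so passing does not show that a cell type was present. Markers past 2-fold were Adgre1 among the macrophage genes (6.51 on the array labelled HuR-deficient and 4.94 on the wildtype array) and S100a8 among the neutrophil genes (4.04 and 6.31), and their part in the results below was not tested. All 36 antiviral genes reached 4.38 on both arrays.

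The antiviral genes as a group lay slightly higher on the array labelled HuR-deficient. Because they were chosen with earlier results of these arrays known, the shares below describe the set and do not test its direction. Of the 36, 29 (80.6%) lay above 0, against 49.3% of the 11905 genes past the filter, and 7 lay below 0, against 48.6%. The median difference was 0.18, which is 1.14-fold, against a median of 0 over all genes that passed. The highest difference was that of Helz2 (0.90) and the lowest that of Ifi44l (-0.36). At 2-fold or more, 0 of 36 genes were counted, against 1.99% of all genes past the filter (0.882% higher and 1.11% lower). At so small a share, a set of 36 genes would hold few or none. At 1.5-fold or more, a log2 difference of 0.585, 5 of the 36 were higher, against 5.44% of all genes, and 0 were lower, against 5.32%. The 5 were Helz2, Cmpk2, Uba7, Daxx and Mx2. Mx2 lay just inside that threshold at 1.51-fold and Rsad2 just outside it at 1.49-fold. At a log2 difference of 0.32, 13 genes were higher, against 17.4% of all genes, and 1, Ifi44l, was lower, against 16.8%. The SD of the differences was 0.277 among the antiviral genes and 0.399 among all genes that passed. These 2 values are not matched for signal. Of the 36 genes, 25 lay at or above percentile 90 of mean signal, where differences scatter less.

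**Figure D1:**
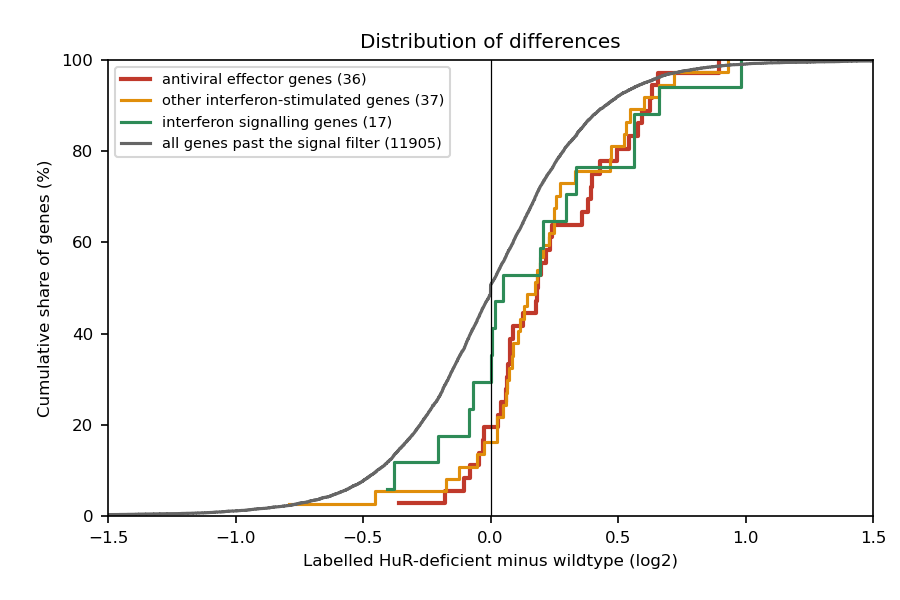
Cumulative share of genes (%) against the log2 difference, array labelled HuR-deficient minus wildtype array, for the 36 antiviral genes, 37 other interferon-stimulated genes, 17 interferon signalling genes and all 11905 genes that passed the filter; 61 genes of the last set lie beyond 1.5 in either direction, outside the axis. The curve of the antiviral genes lies to the right of that of all genes up to about 0.6, with a median of 0.18, and stays left of the 2-fold mark at 1.

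For 19 of the 36 genes (52.8%) the difference was smaller than the local SD, against 64.5% of all genes past the filter. The local SD ran from 0.170 to 0.345 for the antiviral genes. Another 16 (44.4%) were higher by at least that SD, against 17.9% of all genes, and 1 was lower by at least that SD, against 17.6%. Of the 7 genes below 0, 6 lay within the local SD, and Ifi44l did not. At 2 local SDs or more, 5 genes were higher, against 4.45% of all genes, and 0 were lower, against 4.42%. They were Daxx (2.82 local SDs), Helz2 (2.74), Mx2 (2.65), Ifi205 (2.33) and Cmpk2 (2.21).

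**Figure D2:**
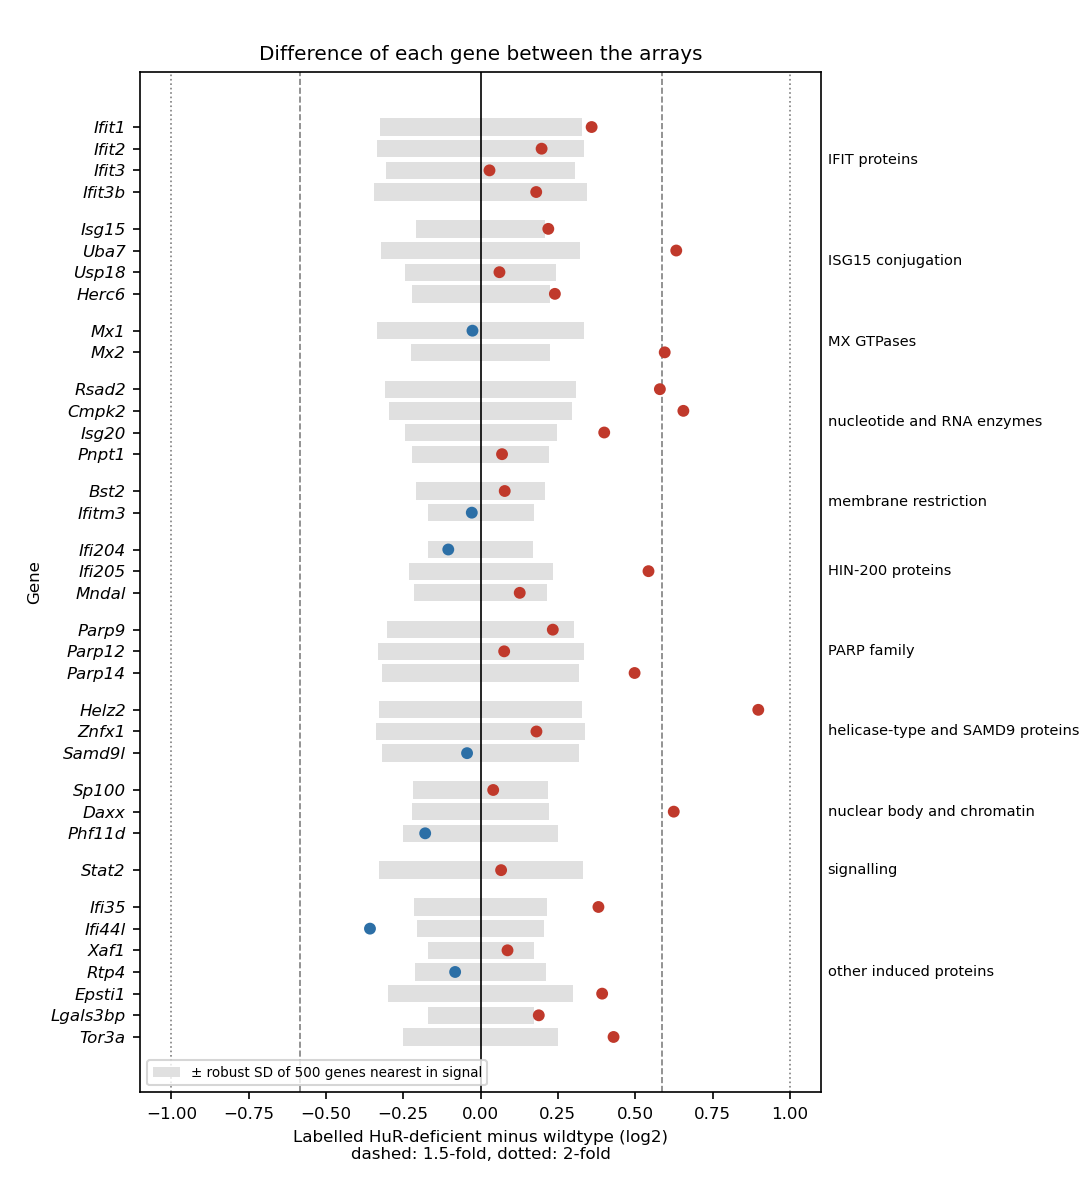
Log2 difference of each of the 36 antiviral genes, array labelled HuR-deficient minus wildtype array, ordered by role (red above 0, blue below 0). Grey bars show the robust SD of the 500 genes nearest in signal on either side of 0, and dashed and dotted lines mark 1.5-fold and 2-fold; 5 points lie past the dashed line on the right and none on the left.

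The promoters of these genes were read for the ISRE core, searched on both strands as 2 copies of GAAA with any 2 bases between them, overlapping matches counted. RefSeq promoter windows (assembly GRCm38.p6, 250 bases before to 50 after a listed start of transcription) were matched for 28 of the 36 genes. Of these, 6 had several windows. The listed start need not be the annotated start of the gene. The element was present in 10 of the 28 genes, 35.7%, against 3.83% of genes past the filter for which a window was listed. Its share in 37 other interferon-stimulated genes was 51.4%. The dimer site of activated STAT proteins (GAS), searched as TTCNNNGAA, was in 5 of the 28 (17.9%), against 8.18% of the genes that passed. Both are matches of letters and not shown to be bound sites.

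The 200 bases before the listed start of 7 genes are printed. They show how the matches are arranged in IFIT genes, Isg15 and Rsad2. They also show the promoters of the genes with the highest (Helz2) and the lowest difference (Ifi44l). For Ifit3, Ifit3b and Helz2 the listed start lay inside the annotated gene and not at its first base, and positions are counted from the listed start. Capitals mark the ISRE core.
Isg15 (chr4:156200819-156201018, minus strand, GRCm38.p6): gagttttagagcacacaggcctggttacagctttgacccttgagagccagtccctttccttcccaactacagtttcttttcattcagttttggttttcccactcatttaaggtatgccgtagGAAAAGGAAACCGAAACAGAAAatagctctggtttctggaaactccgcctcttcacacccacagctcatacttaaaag
Ifit1 (chr19:34640689-34640888, plus strand, GRCm38.p6): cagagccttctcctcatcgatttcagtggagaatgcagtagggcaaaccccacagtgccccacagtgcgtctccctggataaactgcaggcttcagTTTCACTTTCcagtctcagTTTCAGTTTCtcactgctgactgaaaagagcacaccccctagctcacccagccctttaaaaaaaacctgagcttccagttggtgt
Ifit3 (chr19:34583329-34583528, plus strand, GRCm38.p6): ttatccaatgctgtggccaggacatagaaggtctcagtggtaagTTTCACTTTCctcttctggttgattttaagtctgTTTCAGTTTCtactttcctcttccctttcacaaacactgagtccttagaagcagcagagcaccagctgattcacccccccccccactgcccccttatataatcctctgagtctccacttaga
Ifit3b (chr19:34607757-34607956, plus strand, GRCm38.p6): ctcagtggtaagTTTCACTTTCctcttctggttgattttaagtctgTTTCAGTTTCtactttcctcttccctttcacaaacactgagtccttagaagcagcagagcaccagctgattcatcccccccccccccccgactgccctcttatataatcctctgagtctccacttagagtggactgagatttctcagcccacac
Rsad2 (chr12:26456453-26456652, minus strand, GRCm38.p6): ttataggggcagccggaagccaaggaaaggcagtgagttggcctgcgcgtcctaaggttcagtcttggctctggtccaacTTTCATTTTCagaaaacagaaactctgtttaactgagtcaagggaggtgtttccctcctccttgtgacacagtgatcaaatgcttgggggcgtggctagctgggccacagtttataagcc
Helz2 (chr2:181242028-181242227, minus strand, GRCm38.p6): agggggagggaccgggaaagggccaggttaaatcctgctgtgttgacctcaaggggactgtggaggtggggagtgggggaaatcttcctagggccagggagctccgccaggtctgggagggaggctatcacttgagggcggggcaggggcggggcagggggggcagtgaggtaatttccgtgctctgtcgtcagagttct
Ifi44l (chr3:151762892-151763091, minus strand, GRCm38.p6): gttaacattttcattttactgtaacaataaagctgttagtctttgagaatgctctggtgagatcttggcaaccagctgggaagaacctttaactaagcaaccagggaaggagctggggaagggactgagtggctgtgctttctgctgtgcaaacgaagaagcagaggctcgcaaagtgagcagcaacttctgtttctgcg

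In Isg15, 3 overlapping matches ran from position -78 to -57 on the gene's strand. Ifit1, Ifit3 and Ifit3b carried the same 2 decamers on the opposite strand. They began at -104 and -85 in Ifit1, at -156 and -122 in Ifit3 and at -188 and -154 in Ifit3b. In a global alignment of the Ifit3 and Ifit3b windows, 258 of 300 bases were identical over 340 aligned columns (75.9%). Gaps count in that share, and the printed bases show the 2 windows set at shifted points of a like sequence. Ifit1 and Ifit3 were 48.3% identical. Rsad2 had 1 match, at -120. Neither Helz2 nor Ifi44l had a match in this window, and the 200 bases of Helz2 had a GC content of 63.5%. The 10 genes with a match had a median difference of 0.15, with 9 above 0, and the 18 without had a median of 0.19, with 15 above 0. At 1.5-fold or more, 0 of the 10 genes with a match were higher, and the highest difference was 0.58, while 4 of the 18 without were higher, up to 0.90. Over all genes past the filter, 49.3% lay above 0 and 5.44% were at least 1.5-fold higher. Whether the 2 sets differ was not tested. The 8 genes with no window (Usp18, Mx1, Mx2, Ifi204, Parp9, Parp14, Rtp4 and Tor3a) had a median of 0.15.

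**Figure D3:**
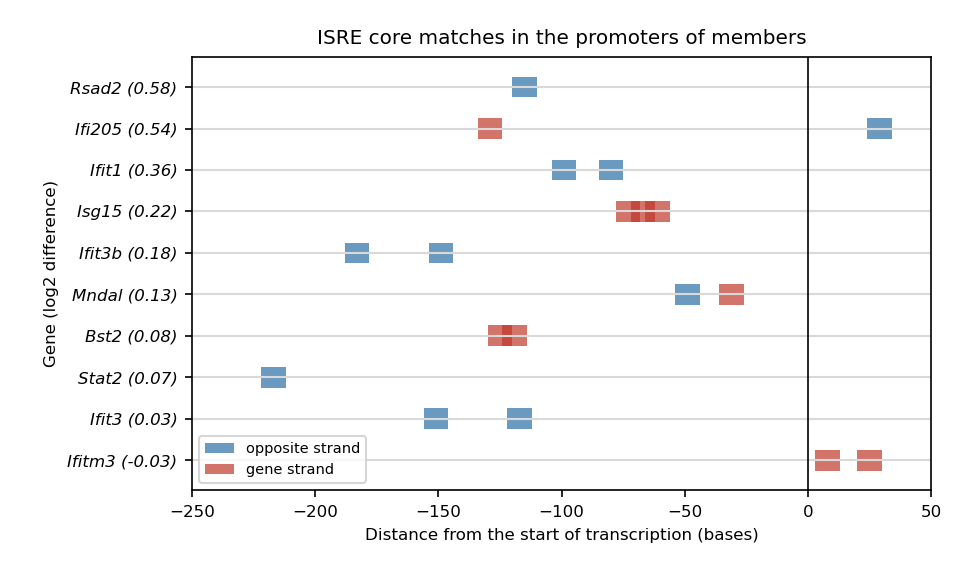
Positions of ISRE core matches in the promoter windows of 10 antiviral genes, in bases from the start of transcription at 0, with the log2 difference beside each name; red marks the gene's strand and blue the opposite strand. The genes run from Rsad2 (0.58) at the top to Ifitm3 (-0.03), whose 2 matches lie after the start; the 2 matches of Mndal come from windows of different starts.

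IFIT proteins bind viral RNAs that lack the marks of host mRNA. All 4 IFIT genes of the set lay above 0, against 49.3% of all genes past the filter, with a median of 0.19. Ifit1, which recognises RNA with an incompletely methylated cap, had a signal of 7.22 on the array labelled HuR-deficient and 6.86 on the wildtype array, a difference of 0.36. Ifit2, a partner of Ifit1, had 5.05 and 4.85, a difference of 0.20. Ifit3 had 8.10 and 8.07, and Ifit3b, a close copy of Ifit3 in the mouse, had 6.03 and 5.85. The first of these differences was slightly larger than the local SD and the other 3 were smaller. The IFIT genes lie close together on chromosome 19 and related in sequence, and whether their probe sets read each other's transcripts was not tested.

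ISG15 is a ubiquitin-like protein that is joined to newly made proteins in infected cells. The 4 genes of its pathway were all above 0, against 49.3% of all genes past the filter. Isg15 itself had a signal of 10.72 on the array labelled HuR-deficient and 10.50 on the wildtype array, a difference of 0.22. Uba7, the enzyme that activates ISG15 for transfer, had 7.48 and 6.85 and was 1.55-fold higher (difference 0.63). Herc6, which is the main ISG15 ligase in the mouse, had 9.88 and 9.64, and Usp18 had 9.47 and 9.40. Usp18 removes ISG15 from proteins and dampens signalling at the interferon receptor, and its difference of 0.06 was a fraction of the local SD of 0.245. Uba7 had the largest difference of the 4, at 1.96 local SDs, against 1.08 for Herc6 and 1.05 for Isg15. The modifier, the ligase and the protease differed by at most 1.18-fold. Whether the activating enzyme differs from them beyond scatter was not tested.

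The MX proteins are dynamin-like GTPases that block viral ribonucleoproteins, and many inbred laboratory mouse strains carry disrupted alleles of Mx1. Mx1 had a signal of 6.16 on the array labelled HuR-deficient and 6.18 on the wildtype array, a difference of -0.03. Mx2 had 10.28 and 9.68 and was 1.51-fold higher (difference 0.60), at percentile 94.8 of the differences of all genes that passed. Whether the differences of the 2 family members are unlike beyond scatter was not tested.

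Enzymes of nucleotides and RNA had the highest median of the roles with more than 1 gene, 0.49 over 4 genes. Cmpk2, a mitochondrial nucleotide kinase, had a signal of 8.54 on the array labelled HuR-deficient and 7.88 on the wildtype array (difference 0.66). Rsad2, which encodes viperin, an enzyme that turns CTP into a chain terminator for viral polymerases, had 8.22 and 7.64 (difference 0.58). Cmpk2 and Rsad2 are adjacent protein-coding genes on chromosome 12, and their differences were 0.08 apart. Isg20, an exonuclease that degrades single-stranded RNA, had 9.34 and 8.94 (difference 0.40). Pnpt1, a mitochondrial RNA-degrading phosphorylase, had 10.13 and 10.06, a difference of 0.07 that was within the local SD.

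The proteins that act at membranes gave nearly equal signals on the arrays. Bst2, or tetherin, which holds budding virions on the cell surface, had 10.61 on the array labelled HuR-deficient and 10.53 on the wildtype array. Ifitm3, which hinders fusion of viral and endosomal membranes, had 12.70 and 12.73. Ifitm3 lay at percentile 99.8 of all named genes by mean signal, where the spread of differences is small.

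**Figure D4:**
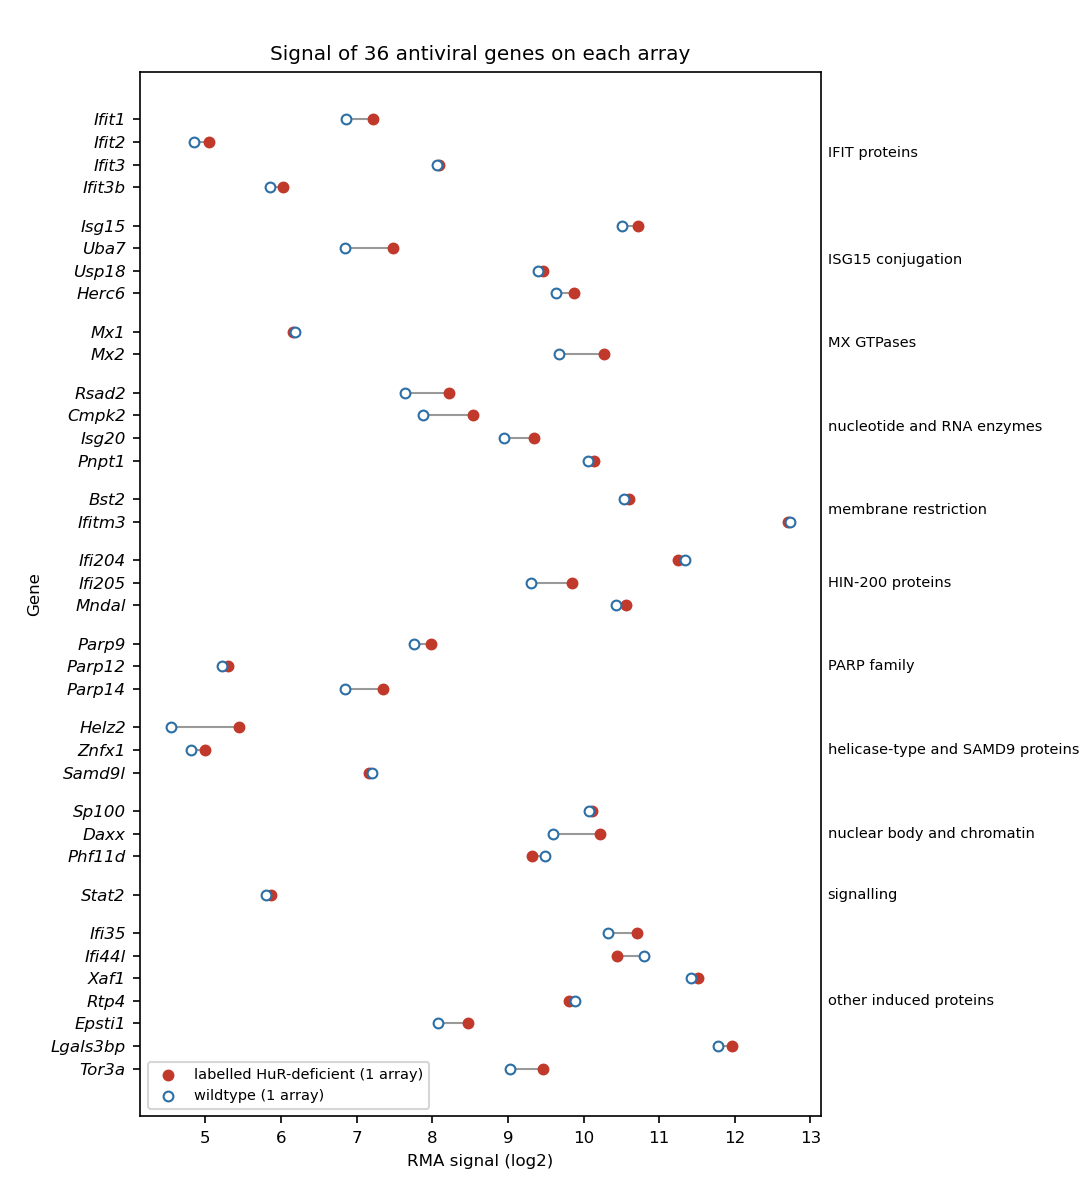
RMA signal (log2) of the 36 antiviral genes on the array labelled HuR-deficient (filled red) and the wildtype array (open blue), ordered by role, with a grey line joining the 2 values of a gene. The filled point lies to the right for 29 genes; the longest line is that of Helz2, with 5.45 on the array labelled HuR-deficient and 4.55 on the wildtype array.

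The HIN-200 proteins bind DNA in the cytosol or nucleus, and their genes lie together on chromosome 1. Ifi205 had a signal of 9.85 on the array labelled HuR-deficient and 9.30 on the wildtype array (difference 0.54). Mndal had 10.56 and 10.43 (difference 0.13), and Ifi204, which encodes the DNA sensor p204, had 11.24 and 11.35 (difference -0.10). Ifi204 and Mndal are adjacent and lay on opposite sides of 0, both within the local SD. These genes are closely related in sequence, so shared probes were not tested here either.

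The PARP genes encode enzymes of ADP-ribosylation, and all 3 had positive differences, against 49.3% of all genes past the filter. Parp14, a mono-ADP-ribosyltransferase, had 7.35 on the array labelled HuR-deficient and 6.85 on the wildtype array (difference 0.50). Parp9, which acts with the ubiquitin ligase DTX3L, had 7.99 and 7.75 (difference 0.23). Parp12, which is found at the Golgi and in stress granules, had 5.30 and 5.22. Only the difference of Parp14 among these 3 was larger than its local SD.

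Helz2, a helicase with zinc fingers that serves as a transcriptional coactivator, had the largest difference of the 36 genes. Its signal was 5.45 on the array labelled HuR-deficient and 4.55 on the wildtype array, a 1.86-fold difference at percentile 98.7 of all genes that passed. The wildtype value lay close to the filter's floor of 4.38 and was the lowest of any antiviral gene on either array. Znfx1, a helicase-like sensor of double-stranded RNA at mitochondria, had 5.00 and 4.82, and Samd9l, which restricts poxviruses and cell growth, had 7.16 and 7.21. These last 2 differences, 0.18 and -0.04, were within the local SD.

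Among genes of nuclear bodies and chromatin, Daxx had the largest difference. Daxx, a histone chaperone that works in PML nuclear bodies, had 10.22 on the array labelled HuR-deficient and 9.59 on the wildtype array, 1.54-fold higher (difference 0.62). Sp100, a constituent of the same bodies, had 10.11 and 10.07. Phf11d, which encodes a PHD finger protein, had 9.31 and 9.49 (difference -0.18), within the local SD of 0.250. Stat2, the component of ISGF3 that is itself induced by interferon, had 5.87 and 5.81.

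The remaining 7 genes have varied or less well understood roles and had a median of 0.19. Tor3a, a torsin-family ATPase of the endoplasmic reticulum, had 9.46 on the array labelled HuR-deficient and 9.03 on the wildtype array (difference 0.43). Epsti1 differed by 0.39 and Ifi35, which pairs with the related protein NMI, by 0.38. All 3 exceeded the local SD. Lgals3bp, a secreted glycoprotein that binds galectins, differed by 0.19 and Xaf1, an antagonist of the apoptosis inhibitor XIAP, by 0.09. Rtp4, a chaperone of cell-surface receptors that also inhibits flaviviruses, had 9.81 and 9.89. Ifi44l had 10.44 and 10.80, and its difference of -0.36 (1.28-fold lower) was the one negative difference outside the local SD.

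The median difference was not the same in every range of signal, and whether it depends on signal was not tested. Probe sets differ in brightness for the same amount of RNA, so signal here does not rank the genes by abundance. The precision of single genes was not measured. For the 12 genes with a mean signal of 8 to below 10 the median difference was 0.40, and 3 were at least 1.5-fold higher, against 3.98% of the 1156 genes in that range. For the 11 genes at 10 or above the median was 0.08 and 0 were at least 1.5-fold higher, against 1.55% of 644 genes. In the 7 genes from 6 to below 8 the median was 0.36, with 1 at 1.5-fold (4.32% of 2709 genes), and in the 6 below 6 it was 0.18, with 1 at 1.5-fold (6.42% of 7396 genes). No antiviral gene in any range was 1.5-fold lower, where 5.49%, 6.02%, 4.15% and 2.48% of all genes were, in order of rising signal. Across the 36 genes the difference and the mean signal had a Pearson r of -0.26 and a Spearman rho of -0.25, given as a description since all points share the same 2 arrays.

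**Figure D5:**
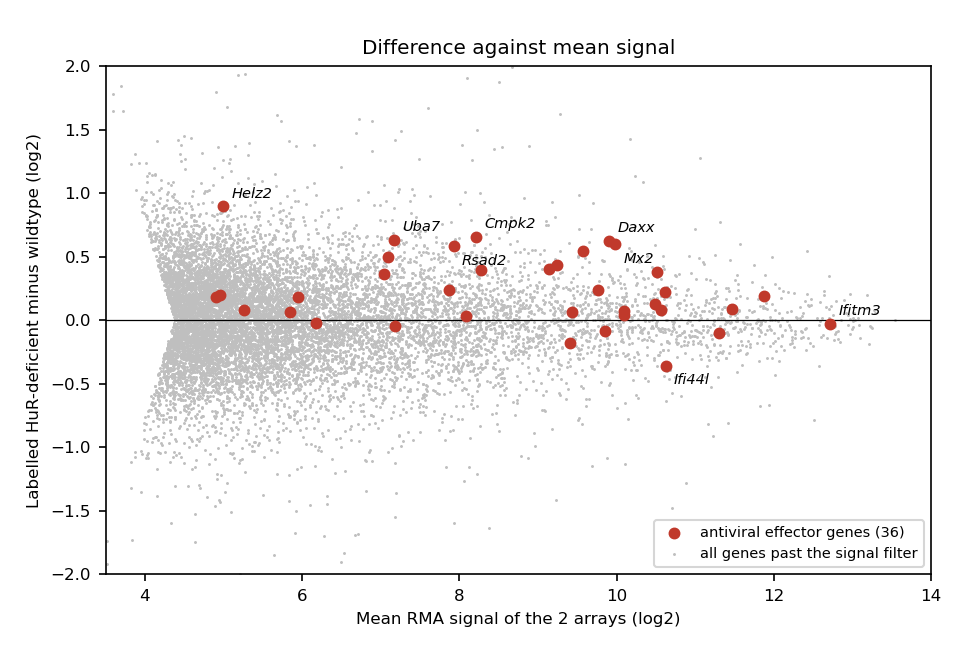
Log2 difference, array labelled HuR-deficient minus wildtype array, against the mean RMA signal of the 2 arrays (log2), for the 36 antiviral genes (red) and all genes that passed the filter (grey); 26 genes beyond 2 in either direction lie outside the axis. Most red points lie between 0 and 0.66, Helz2 is the highest and Ifi44l the lowest.

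The signalling genes upstream of the antiviral genes had a median close to 0 and a mean of 0.16, against a mean of 0.23 for the 36. Of 19 listed, 17 had a probe set with 1 symbol, and they had a median of 0.05. A probe set that Irf5 shares with Tnpo3 (-0.006) was not used. Above 0 lay 11 (64.7%, against 49.3% of all genes past the filter) and below it 5. Ifnb1, the gene of interferon beta, differed by 0.0050. Irf7, the factor that amplifies interferon production, differed by 0.20, and Irf9, the DNA-binding part of ISGF3, by -0.09. The highest differences were those of Irf8, a myeloid transcription factor (0.98), Tyk2 (0.66) and the adaptor gene Mavs (0.56). The lowest were those of the receptor subunit gene Ifnar2 (-0.41), the feedback inhibitor Socs3 (-0.38) and Ifna4 (-0.21). At 1.5-fold, 2 of the 17 were higher and 0 lower, against 5.44% and 5.32% of all genes past the filter.

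Other interferon-stimulated genes had nearly the same distribution as the 36. Of 45 listed, 38 had a probe set with 1 symbol and 37 passed the filter, with a median of 0.18, 31 above 0 and 6 below. Probe sets shared with another symbol were not used. These were those of Ifi47 (0.72), Trex1 (0.65), Gbp2 (0.45), Dtx3l (0.19) and Oas1a (0.03). The share above 0 was 83.8%, against 49.3% of all genes past the filter. At 1.5-fold, 4 were higher and 1 was lower, against 5.44% and 5.32% of all genes. Iigp1, an immunity-related GTPase gene, differed by 0.93, Pml, which organises the nuclear bodies that hold SP100 and DAXX, by 0.72, and the antibody receptor gene Trim21 by 0.66. Trim30a (-0.79), Ifi27 (-0.45) and the helicase gene Ddx60 (-0.17) were lowest. The 2 lists share no gene, but they were chosen with earlier results of these arrays known, so the second is not independent evidence of the direction of the first.

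Relatives of the antiviral genes by sequence family included 1 gene higher by 2-fold, against 0.882% of all genes past the filter. Of 37 listed, 30 had a probe set with 1 symbol and 25 passed the filter, with a median of 0.23. Shared probe sets were not used, among them those of Parp10 (0.72), Ifi203 (0.66), Sp140 (0.07 to 0.32) and Ifi211 (-0.05). Above 0 lay 19 (76%), against 49.3% of all genes. Ifit1bl1, an Ifit1-like gene of the mouse, had 7.42 on the array labelled HuR-deficient and 5.95 on the wildtype array, a difference of 1.47, while Ifit1 differed by 0.36 and Ifit1bl2 by 0.17. Parp8 (0.82) and Isg20l2 (0.74) followed, and Tor1b (-0.15), Parp2 (-0.13) and Parp1 (-0.10) were lowest. The values of family members were unlike in the IFIT, MX, HIN-200 and PARP families, and whether they differ beyond scatter was not tested.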

How the data were processed

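The deposited log2 values are the authors' RMA output, as named in the submitters' processing notes. The RMA version, the annotation and the build: not given in the sources used here. The log2 scale was inferred from values that run from 0.434 to 13.8. RMA equalises the distribution of signals across arrays, which hides any difference in the total mRNA of a cell.

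Of 41345 probe sets, 23521 had 1 symbol in the platform's gene table, 1814 several and 16010 none; only the first were used. Where a gene had several, its brightest by the mean of both arrays was taken. No p-value was computed, as each group has 1 array; precision is limited by that number. All 36 genes are named, in an order set by role; from each related list the 3 highest and 3 lowest differences among genes that passed the filter were named. The members and lists were chosen with earlier results of these data known. The steps were tested on simulated differences. Promoters came from RefSeq tables, and gene order from GRCm38.p6. Alternatives were centring, a further quantile normalisation, a loess trend (span 0.3), averaged probe sets, other filters and thresholds. Python 3.11.15, numpy 2.4.6, pandas 2.3.3, scipy 1.17.1, statsmodels 0.14.6, Biopython 1.88 and matplotlib 3.10.9 were used.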

Additional observations from a re-analysis of the deposited data

How the results depend on the processing

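The median difference of the 36 genes stayed between 0.18 and 0.23 with averaged probe sets, a second quantile normalisation, a subtracted loess trend, median centring, 3 other signal filters and use of the mean. The number above 0 stayed at 29 in those settings that kept all 36 genes, and was 25 of 32 with a filter at the 75th percentile. No gene changed sign under the first 4 of these, and the largest move was 0.13, when probe sets were averaged. The count at 1.5-fold ranged from 4 to 6. The count of 0 at 2-fold became 5 at a threshold of 1.5-fold and 14 at a log2 difference of 0.32, which follows from the threshold. In an alternative chosen after seeing the data, 7 genes with close paralogs were left out; the median was then 0.22, with 24 of 29 above 0 and 5 at 1.5-fold. No paired analysis was possible because each group has 1 array and the labels give no replicate numbers. Without detection calls, a dim value such as that of Helz2 on the wildtype array is not shown to lie above background, and no array can be left out.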

Other observations

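Of the 3 genes with several probe sets, Ifi35 gave like differences on both, 0.38 and 0.40, and Lgals3bp gave 0.19 and 0.10. Sp100 differed by 0.04 on the probe set used, by 0.13 on another of similar brightness, and by 0.42 and 0.07 on a pair with signals below the filter's floor. Another 3 probe sets carry the symbol of an antiviral gene together with a second gene and were not used: Dtx3l with Parp9 differed by 0.19, Gm7609 with Sp100 by 0.13, and Ifi211 with Ifi204 by -0.05. Each lay on the same side of 0 as the probe set used for Parp9, Sp100 and Ifi204. Isg15 and Bst2 both had overlapping ISRE core matches in their promoter windows, 3 in Isg15 and 2 in Bst2, and differed by 0.22 and 0.08. Ifitm3 had its 2 matches after the start of transcription, at positions 3 to 12 and 20 to 29.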
